A study of Homo sapiens with 70 samples.

Results

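The report concerns 50 human genes of mitosis: the cyclins and CDK1 that start it, the mitotic kinases, the checkpoint and anaphase machinery, kinetochore and spindle proteins, cytokinesis proteins, condensin subunits, and FOXM1 and MYBL2. They were taken by symbol from a fixed list of names, and all 50 were present among the 20090 genes of the tables. Hep3B and Huh7, a pair of established lines from human liver carcinomas, were treated for 24 h in 8 groups, and polyadenylated RNA was sequenced from 70 samples. The vehicle group of each line received DMSO (9 samples in Hep3B, 8 in Huh7). Another group of each line received 5 µM GW3965, which activates the liver X receptors (9 in Hep3B, 8 in Huh7), and another received 2 µM sorafenib, an inhibitor of RAF and receptor tyrosine kinases (9 in each line). The last group received both drugs at these doses (9 in each line). No genetic change or other agent is labelled in any group. The labels do not say that samples of a group came from separate cultures, so the p-values measure only the spread between these samples.

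Entry into mitosis is driven by cyclin B bound to CDK1, which CDC25 phosphatases activate and which acts with PLK1 and the Aurora kinases. Kinetochores, built on CENP-A chromatin, hold microtubules through the Ndc80 complex, and the spindle checkpoint (BUB1, BUB1B, BUB3, MAD2L1, TTK) restrains CDC20 until chromosomes are attached. Most of these genes are transcribed in G2 and M phase, through promoters bound by the MuvB complex with B-MYB (MYBL2) and FOXM1, and their RNA is low in non-dividing hepatocytes and high in dividing hepatoma cells.

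The values below come from 6 comparisons by the authors, in which each drug group of a line was set against its DMSO samples. Each gives, per gene, a mean log2 CPM (CPM being read counts scaled by library size), a log2 fold change and an FDR from edgeR. A gene was counted as lower or higher at an FDR under 0.05. The tables used hold no single libraries. Depth and the spread between libraries are therefore unknown, and levels in CPM are group means implied by the mean, the fold change and the group sizes. In Huh7 the labels of the single-drug groups go against the targets of the drugs. In the authors' deposited tables ABCG1, a target of the liver X receptors, stood at 0.75 (log2 fold change) in the Huh7 group labelled GW3965 and at 3.82 in the group labelled sorafenib. DUSP6, a target of ERK signalling, stood at -1.70 in the group labelled GW3965 and at -0.02 in the group labelled sorafenib, in the authors' deposited tables. In Hep3B ABCG1 stood at 5.99 with GW3965 and DUSP6 at -2.40 with sorafenib in the authors' deposited tables. The Huh7 groups are therefore called "labelled GW3965" and "labelled sorafenib" throughout, and every direction drawn from them rests on those labels. All 12 hepatocyte markers were at 2 CPM or more in the DMSO groups of both lines. Of 12 markers of other cell types, 3 reached that level in each line (CD14, COL1A2 and LYZ in Hep3B, and COL1A1, COL1A2 and LYZ in Huh7). The leukocyte markers went both ways. LYZ stood at 42.5 CPM in Hep3B and 192 CPM in Huh7, and CD14 reached 2 CPM in Hep3B alone. CD3E and PTPRC were below 2 CPM in both lines, as were the endothelial markers CDH5, PECAM1 and VWF. Fewer cells in mitosis and less RNA of these genes per cell cannot be told apart in bulk RNA.

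All 50 genes were expressed in both lines. In DMSO the implied level ran from 8.75 CPM (SPC24) to 537 CPM (TOP2A) in Hep3B, with a median of 65.9, and from 7.06 CPM (SPC24) to 417 CPM (TOP2A) in Huh7, with a median of 78.0. Per kilobase of transcript, over the 49 genes with a known length, SPC24 was again the lowest (3.78 CPM per kb in Hep3B and 3.05 in Huh7). TOP2A, the topoisomerase that untangles sister chromatids, was the highest in Hep3B at 93.3 CPM per kb, and TPX2, which activates AURKA on the spindle, was the highest in Huh7 at 87.7. The DMSO levels of the lines (log2, Hep3B minus Huh7, with no test) differed by between -1.04 (CDC25B) and 0.98 (CENPF), with NDC80 at -1.01 and NCAPG at -0.98. The DMSO level implied by the 3 tables of a line varied with an SD (log2) of 0.0444 to 0.0497 among these genes in Hep3B and 0.0087 to 0.0242 in Huh7.

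The promoters of 6 of these genes are printed. For the 4 subunits of the Ndc80 complex, which must assemble in equal numbers, the reason is that they had different values in these data. Those of HMMR and MKI67 are printed because in Hep3B with both drugs they had the highest and lowest log2 fold change. Sequences are from RefSeq, build GRCh38.p14, which is not the build of the authors' tables (hg19), and were matched by symbol. Each runs 5′ to 3′ on the strand of the gene, with 120 bases before the annotated start and 30 from it. Capitals mark the CHR motif TTTGAA and the CCAAT box, on either strand (TTCAAA and ATTGG when reversed). The HMMR stretch holds 2 CHR motifs and a pair of overlapping CCAAT matches, and in MKI67 one CHR motif overlaps a reversed CCAAT box.
NDC80, chr18:2571437-2571586, + strand: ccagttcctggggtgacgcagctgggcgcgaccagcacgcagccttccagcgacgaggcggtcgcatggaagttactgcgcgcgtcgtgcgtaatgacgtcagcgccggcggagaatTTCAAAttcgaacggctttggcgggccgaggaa
NUF2, chr1:163321834-163321983, + strand: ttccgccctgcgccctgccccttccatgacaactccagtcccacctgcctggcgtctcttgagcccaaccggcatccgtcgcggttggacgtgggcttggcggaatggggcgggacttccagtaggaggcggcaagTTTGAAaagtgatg
SPC24, chr19:11155753-11155902, - strand: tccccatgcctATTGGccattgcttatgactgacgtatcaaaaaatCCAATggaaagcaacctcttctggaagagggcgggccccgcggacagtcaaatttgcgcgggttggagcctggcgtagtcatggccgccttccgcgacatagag
SPC25, chr2:168890401-168890550, - strand: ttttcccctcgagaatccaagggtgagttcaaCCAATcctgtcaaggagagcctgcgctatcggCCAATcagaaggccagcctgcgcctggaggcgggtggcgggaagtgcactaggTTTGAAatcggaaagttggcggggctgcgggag
HMMR, chr5:163460512-163460661, + strand: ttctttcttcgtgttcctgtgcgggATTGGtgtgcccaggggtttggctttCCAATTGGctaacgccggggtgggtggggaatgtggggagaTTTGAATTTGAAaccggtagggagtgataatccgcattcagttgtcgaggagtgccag
MKI67, chr10:128126394-128126543, - strand: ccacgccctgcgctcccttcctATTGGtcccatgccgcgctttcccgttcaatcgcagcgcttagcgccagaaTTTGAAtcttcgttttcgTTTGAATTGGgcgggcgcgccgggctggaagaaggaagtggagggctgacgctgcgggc

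A wider window, from 250 bases before to 50 after the start, was searched on both strands in the 43 genes that had an entry. BIRC5, FOXM1, BUB3, UBE2C, TTK, TPX2 and AURKA had none. The letters TTTGAA were found for 30 of the 43 genes (69.8%), against 13.6% of 8472 expressed genes with an entry. Some genes have several windows. Counted by window, TTTGAA was found in 60.0% of the 55 windows of these genes and 15.2% of all 35114 windows. The letters CCAAT were found for 33 of the 43 genes (76.7%), against 44.1% of the expressed genes. Counted by window, CCAAT was found in 69.1% of the windows of these genes and 34.6% of all windows. Both occurred together for 53.5% of these genes and 5.76% of the expressed genes. These matches describe the letters of the windows and are no evidence of binding.

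Sorafenib lowered most of the mitotic genes in Hep3B. In the authors' deposited table a total of 43 of 50 were lower and 0 higher with sorafenib than with DMSO, with a median log2 fold change of -0.52. Of all genes at 2 CPM or more, 27.9% were lower and 23.6% higher, with a median of -0.03. The 3 lowest were MKI67 (the proliferation antigen Ki-67, -1.33, FDR 2.02e-08), ASPM (a spindle pole protein, -1.24, FDR 3.48e-17) and CENPE (the kinetochore kinesin, -0.99, FDR 2.66e-12) in the authors' deposited table. Their implied levels went from 99.0 to 39.4 CPM, from 137 to 57.7 CPM and from 44.3 to 22.2 CPM. The called genes with the smallest decreases were BUB3 (-0.20, FDR 0.0321), NUF2 (-0.23, FDR 0.0373) and CDC20 (-0.26, FDR 0.0156) in the authors' deposited table.

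All 6 checkpoint, anaphase-promoting complex and separase genes and all 6 chromosome structure genes were lower with sorafenib in Hep3B, in the authors' deposited table. So were both chromosomal passenger subunits (BIRC5, INCENP), both transcription factors, 10 of 11 kinesins and spindle proteins, 6 of 7 mitotic kinases and 6 of 7 kinetochore genes. Among the kinases TTK was the lowest at -0.73 (FDR 2.71e-17), followed by BUB1 at -0.66 (FDR 2.66e-10), with AURKB at -0.52, AURKA at -0.44 and PLK1 at -0.37, in the authors' deposited table. In the authors' deposited table CCNB1, the main mitotic cyclin, stood at -0.54 (FDR 1.50e-07) and its partner CDK1 at -0.48 (FDR 1.01e-06). TOP2A stood at -0.47 (FDR 1.24e-08) and MAD2L1, the checkpoint effector that binds CDC20, at -0.48 (FDR 1.91e-05) in the authors' deposited table. MYBL2 stood at -0.66 (FDR 9.65e-11) and FOXM1 at -0.35 (FDR 0.00548) in the authors' deposited table. The 7 genes that did not pass the threshold were CCNB2, CDC25B, CDC25C, NEK2, CENPA, HMMR and CEP55, between -0.21 (HMMR) and 0.13 (CDC25B) in the authors' deposited table.

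**Figure D1:**
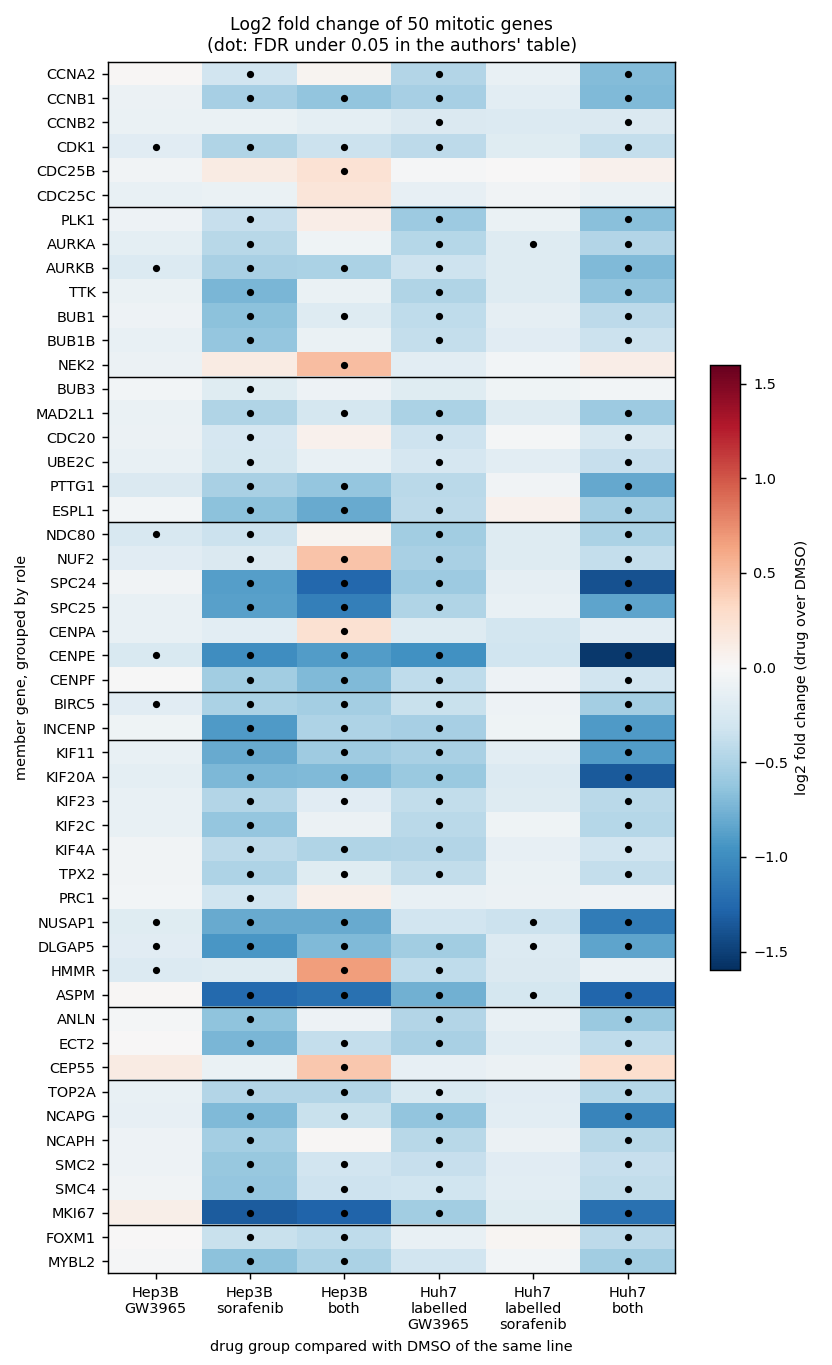
Log2 fold change of the 50 mitotic genes (rows, grouped by role) in the 6 comparisons with DMSO (columns), blue lower and red higher than DMSO. A dot marks an FDR under 0.05 in the authors' deposited tables, and the Hep3B columns for sorafenib and both drugs hold 43 and 29 genes that were lower.

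GW3965 alone changed these genes by little in Hep3B. A total of 8 of 50 were lower and 0 higher in the authors' deposited table, with a median of -0.10. Of all genes at 2 CPM or more, 3.82% were lower and 7.4% higher, with a median of 0.0032. The 8 were NDC80 (-0.26, FDR 0.00206), CENPE (-0.24, FDR 0.0194), HMMR (-0.22, FDR 0.0206), AURKB (-0.21, FDR 0.0125), NUSAP1 (-0.19), BIRC5 (-0.19), DLGAP5 (-0.18) and CDK1 (-0.18, FDR 0.0462) in the authors' deposited table. NDC80, the microtubule-binding subunit that names its complex, stood at 83.7% of its DMSO level and CDK1 at 88.3%. MKI67 (0.09), FOXM1 (0.01), MYBL2 (-0.02), PLK1 (-0.09), TOP2A (-0.11), CCNB1 (-0.10), BUB1 (-0.09), MAD2L1 (-0.10), BUB3 (-0.04) and AURKA (-0.15) did not pass the threshold in the authors' deposited table.

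In Hep3B given both drugs, some of these genes were low and others were near or above their DMSO level. The authors' deposited table gave 29 of 50 as lower and 6 as higher than in DMSO, with a median of -0.29. Of all genes at 2 CPM or more, 35.4% were lower and 36.7% higher, with a median of 0.01. The lowest were MKI67 (-1.28, FDR 4.39e-06), SPC24 (-1.26, FDR 5.81e-23) and ASPM (-1.19, FDR 6.51e-18) in the authors' deposited table. The highest were HMMR, a microtubule and hyaluronan binding protein of the spindle (0.67, FDR 2.26e-06), NEK2, a centrosome kinase (0.49, FDR 7.22e-07), and NUF2 (0.45, FDR 1.73e-05) in the authors' deposited table. CEP55, which recruits the abscission machinery to the midbody (0.43), CENPA, the centromeric histone (0.24), and CDC25B (0.23) were the others that were higher in the authors' deposited table. CCNB1 (-0.63), MYBL2 (-0.51), AURKB (-0.50), TOP2A (-0.47), FOXM1 (-0.41), CDK1 (-0.34), MAD2L1 (-0.28) and BUB1 (-0.21) were lower in the authors' deposited table. PLK1 (0.11), AURKA (-0.07) and BUB3 (-0.08) did not pass the threshold in the authors' deposited table.

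Adding GW3965 to sorafenib raised 20 of the 50 genes and lowered 0 in Hep3B. This difference between the fold changes with both drugs and with sorafenib alone was tested with an approximate normal test, whose standard errors (SE) were derived from the authors' p-values, with adjustment over all genes at 2 CPM or more. By that test 16.6% of all such genes were higher and 14.5% lower. At an adjusted p under 0.01, 10 of the 50 were higher, and the share of all genes was not computed there. The median difference was 0.27 over the 50 genes and 0.04 over all. HMMR had the largest difference, 0.88 ± 0.19 (SE; approximate normal test, adjusted p = 5.84e-05), and its implied level was 17.7 CPM in DMSO, 15.3 in GW3965, 15.4 in sorafenib and 28.3 in both. NUF2 followed with 0.68 ± 0.15 (SE; adjusted p = 5.33e-05 in the same test), with implied levels of 20.2, 17.9, 17.2 and 27.6 CPM in the same order. In both genes the group with both drugs had the highest level of the 4.

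Of the 7 mitotic kinases, 6 were higher with both drugs than with sorafenib by the approximate test: TTK by 0.62 ± 0.13 (SE), BUB1B by 0.51 ± 0.14, PLK1 by 0.48 ± 0.13, BUB1 by 0.45 ± 0.13, AURKA by 0.37 ± 0.13 and NEK2 by 0.37 ± 0.15. PLK1 stood at 116 CPM in DMSO, 109 in GW3965, 89.5 in sorafenib and 124 in both, so the group with sorafenib alone was the lowest. TTK, the kinase that starts the spindle checkpoint, stood at 51.3, 47.8, 30.9 and 47.6 CPM in the same order. AURKB, the kinase of the chromosomal passenger complex, differed by 0.02, with an approximate 95% interval of -0.24 to 0.27, and stood at 65.4, 56.3, 45.6 and 46.1 CPM. All 3 cytokinesis genes were higher as well: ANLN, which links actin and the septins, by 0.56 ± 0.15 (SE), CEP55 by 0.54 ± 0.14 and ECT2, the RhoA exchange factor, by 0.34 ± 0.13, in the approximate test.

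In the other groups a smaller share of genes was higher, to be read against the 16.6% of all genes that were higher by the approximate test. Among the kinesins and spindle proteins 3 of 11 were higher in the approximate test (HMMR, KIF2C and the midzone protein PRC1), and of the 6 chromosome structure genes the condensin subunits NCAPH (0.56 ± 0.13, SE) and NCAPG (0.35 ± 0.13). CCNA2 (0.35 ± 0.13), CDC20 (0.34 ± 0.13), INCENP (0.41 ± 0.14) and CENPA (0.42 ± 0.16) were higher too. MKI67 (0.05, approximate 95% interval -0.62 to 0.72), ASPM (0.05, -0.33 to 0.43), TOP2A (-0.0023, -0.26 to 0.26), FOXM1 (-0.06, -0.32 to 0.21), MYBL2 (0.15, -0.11 to 0.41) and CCNB1 (-0.10, -0.36 to 0.17) did not pass the approximate test.

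**Figure D2:**
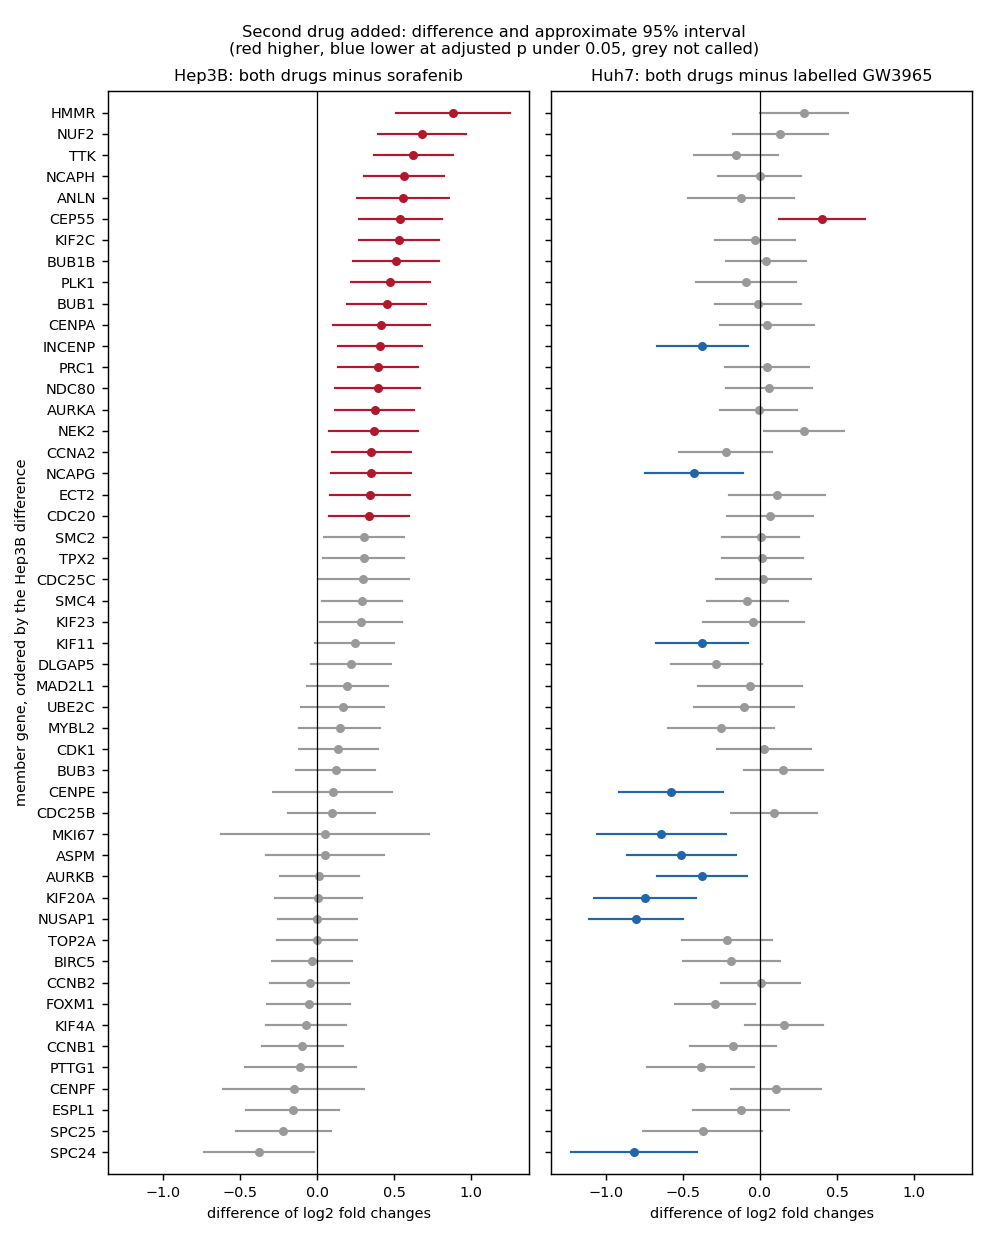
Difference of log2 fold changes for each mitotic gene (rows), with approximate 95% intervals, for both drugs minus sorafenib in Hep3B (left) and both drugs minus the group labelled GW3965 in Huh7 (right). Red points are higher and blue points lower at an adjusted p under 0.05: 20 genes are higher in the left panel, against 1 higher and 10 lower in the right panel. By label the panels are not the same comparison. Both drugs minus the group labelled sorafenib in Huh7, not drawn, gave 29 lower and 1 higher.

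The subunits of the Ndc80 complex, whose promoters are printed above, differed from each other. NDC80 and NUF2 form the microtubule-binding arm, and SPC24 and SPC25 form the arm that faces the centromere. In Hep3B NDC80 had an implied level of 22.6 CPM in DMSO, 18.9 in GW3965, 17.7 in sorafenib and 23.3 in both. SPC24 stood at 8.75, 8.38, 4.75 and 3.65 CPM and SPC25 at 18.1, 16.7, 9.89 and 8.51 CPM in the same order. So SPC24 and SPC25 were lowest in the group with both drugs, where NUF2 was at its highest. Both drugs minus sorafenib gave 0.39 ± 0.14 (SE) for NDC80 (approximate normal test, adjusted p = 0.0202), -0.38 for SPC24 (approximate 95% interval -0.73 to -0.02, not called after adjustment) and -0.22 for SPC25 (-0.53 to 0.09, not called). In Huh7 with both drugs NUF2 (-0.39), NDC80 (-0.50), SPC25 (-0.85) and SPC24 (-1.40) were all lower than in DMSO in the authors' deposited table. The difference between subunits was not itself tested in either line.

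**Figure D3:**
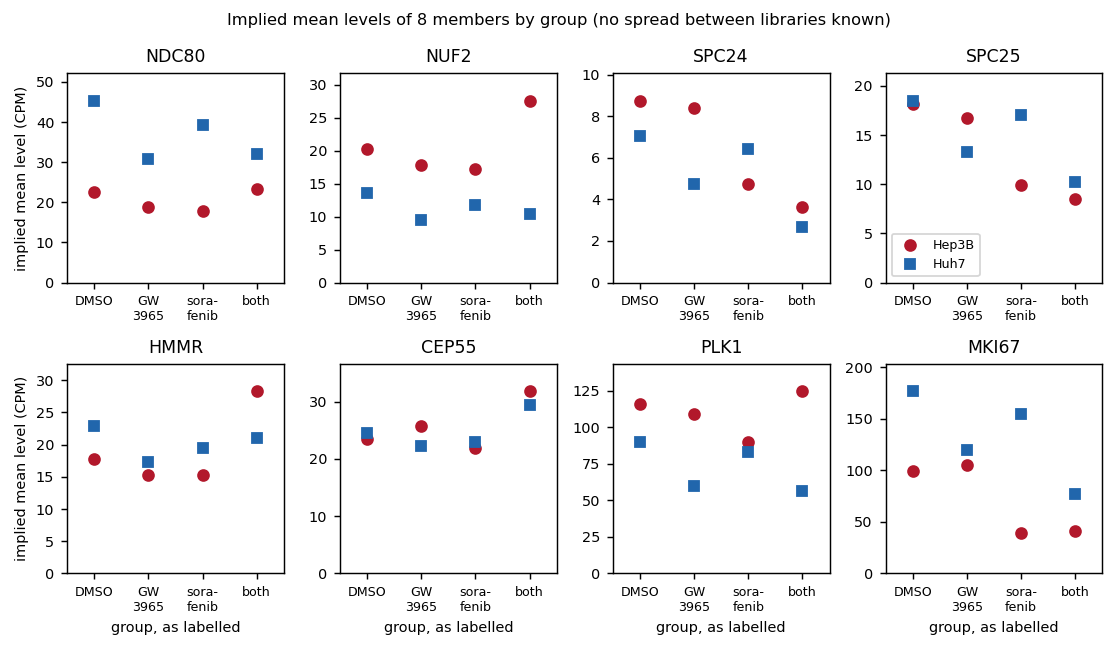
Implied mean level in CPM (vertical axes, each from 0) of 8 mitotic genes in the 4 groups of Hep3B (red circles) and Huh7 (blue squares), with the groups as labelled and no spread between libraries known. NUF2 and HMMR are highest in Hep3B with both drugs (27.6 and 28.3 CPM), while the lowest SPC24 level of the 4 Hep3B groups is in that group (3.65 CPM).

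Against GW3965 alone, both drugs in Hep3B left 24 genes lower and 8 higher by the approximate test, where 33.2% of all genes were lower and 30.7% higher. MKI67 (-1.37 ± 0.29, SE), ASPM (-1.21 ± 0.14), SPC24 (-1.20 ± 0.15) and SPC25 (-0.97 ± 0.12) were the lowest in that test. HMMR (0.89 ± 0.15), NUF2 (0.63 ± 0.12) and NEK2 (0.59 ± 0.12) were the highest. If the drugs acted additively on the log2 scale, the effect of both would be the sum of the single effects. In Hep3B 22 of the 50 genes were higher than that sum and 0 lower by the approximate test, where 10.8% of all genes were higher and 11.4% lower. At an adjusted p under 0.01, 12 were higher, with no share of all genes computed at that threshold. The largest departures were HMMR (1.10 ± 0.20, SE), NUF2 (0.86 ± 0.16), TTK (0.73 ± 0.14), NDC80 (0.65 ± 0.16) and KIF2C (0.65 ± 0.14), the kinesin that depolymerises microtubules at centromeres.

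In Huh7 the group labelled GW3965 had lower levels of most of these genes. Of the 50 genes, 40 were lower and 0 higher in the authors' deposited table, with a median of -0.42, where 17.8% of all genes at 2 CPM or more were lower and 13.6% higher. The lowest were CENPE (-0.96, FDR 3.52e-10), ASPM (-0.76, FDR 2.85e-05) and NCAPG (-0.63, FDR 0.000157) in the authors' deposited table. PLK1 (-0.58, FDR 3.02e-09), CCNB1 (-0.53, FDR 2.10e-05), MKI67 (-0.56, FDR 0.0128), MAD2L1 (-0.51, FDR 0.00471), AURKA (-0.46, FDR 2.05e-06), CDK1 (-0.41, FDR 0.0114), BUB1 (-0.40, FDR 0.00249), AURKB (-0.33, FDR 0.0414) and TOP2A (-0.25, FDR 0.0114) were also lower in the authors' deposited table. The called genes nearest 0 were TOP2A, UBE2C, the ubiquitin-conjugating enzyme of the anaphase-promoting complex (-0.26), and CCNB2 (-0.23) in the authors' deposited table. FOXM1 (-0.12), MYBL2 (-0.30) and BUB3 (-0.19) did not pass the threshold in the authors' deposited table.

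The Huh7 group labelled sorafenib differed from DMSO by small amounts in these genes. Of the 50 genes, 4 were lower and 0 higher in the authors' deposited table, with a median of -0.16. Of all genes at 2 CPM or more, 1.32% were lower and 2% higher, with a median of -0.03. The 4 were NUSAP1, a spindle microtubule bundling protein (-0.34, FDR 0.00408), ASPM (-0.28, FDR 0.0286), DLGAP5 (-0.21, FDR 0.0414) and AURKA (-0.20, FDR 0.0488) in the authors' deposited table. MAD2L1 (-0.21), AURKB (-0.20), CDK1 (-0.19), MKI67 (-0.19), TOP2A (-0.19), CCNB1 (-0.17), BUB1 (-0.15), PLK1 (-0.11), BUB3 (-0.06), MYBL2 (-0.04) and FOXM1 (0.03) did not pass the threshold in the authors' deposited table. The range over all 50 genes was -0.34 (NUSAP1) to 0.07 (ESPL1, the separase) in the authors' deposited table.

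In Huh7 with both drugs, 42 of 50 genes were lower and 1 higher in the authors' deposited table, with a median of -0.46. Of all genes at 2 CPM or more, 26.1% were lower and 35.5% higher, with a median of 0.07. CENPE (-1.54, FDR 8.69e-50), SPC24 (-1.40, FDR 1.30e-23) and KIF20A, a kinesin of the central spindle (-1.34, FDR 4.35e-66), were the lowest in the authors' deposited table. CENPE stood at 50.8 CPM in DMSO, 26.1 in the group labelled GW3965, 40.8 in the group labelled sorafenib and 17.5 in both. KIF20A stood at 61.5, 40.7, 53.0 and 24.2 CPM in the same order, again lowest with both drugs. MKI67 (-1.19), AURKB (-0.70), CCNB1 (-0.70), PLK1 (-0.67), MAD2L1 (-0.58), MYBL2 (-0.56), AURKA (-0.47), TOP2A (-0.46), BUB1 (-0.42), FOXM1 (-0.41) and CDK1 (-0.39) were lower in the authors' deposited table. CEP55 was the 1 gene that was higher (0.27, FDR 0.00170), and BUB3 stood at -0.04 without passing the threshold in the authors' deposited table.

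In Huh7 each single-drug group was also compared with both drugs. Compared with the group labelled GW3965, both drugs left 10 genes lower and 1 higher by the approximate test, where 9.61% of all genes were lower and 20.4% higher. The 10 became 6 when p-values were adjusted over all genes and 4 at an adjusted p under 0.01, settings at which no share of all genes was computed. SPC24 (-0.82 ± 0.21, SE), NUSAP1 (-0.80 ± 0.16), KIF20A (-0.75 ± 0.17), MKI67 (-0.64 ± 0.21) and CENPE (-0.58 ± 0.17) had the largest decreases in that test. The 1 higher gene, CEP55 (0.40 ± 0.14), was no longer called after centring on the median of all expressed genes. Compared with the group labelled sorafenib, 29 were lower and 1 higher (CEP55, 0.36 ± 0.12, again not called after centring) by the approximate test, where 18% of all genes were lower and 29.1% higher. Against the sum of the single effects 3 were lower (SPC24, KIF20A, NUSAP1) and 2 higher (HMMR and CEP55, neither called after centring) by the approximate test, where 5.9% of all genes were lower and 15.3% higher.

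The response to both drugs was compared between the lines, which share no samples. By the approximate test 20 of the 50 genes had a higher log2 fold change in Hep3B than in Huh7 and 0 a lower one, where 17.7% of all genes were higher and 26.3% lower. The median difference was 0.20 over the 50 genes and -0.05 over all. The largest differences were NUF2 (0.84 ± 0.15, SE), HMMR (0.79 ± 0.17), PLK1 (0.78 ± 0.16), CCNA2 (0.73 ± 0.13) and NCAPG (0.70 ± 0.12). CCNA2, the cyclin of S and G2 phase, stood at 103% of its DMSO level in Hep3B with both drugs and at 61.9% in Huh7, and PLK1 at 108% and 62.7%. Of the 7 mitotic kinases 4 were among the 20 (PLK1, TTK, AURKA and NEK2). MKI67 (-0.08), ASPM (0.08), SPC24 (0.14), FOXM1 (0.01) and MYBL2 (0.05) did not pass the approximate test.

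Other genes of the cell cycle were taken from lists beside these 50, and their counts are to be read against all genes at 2 CPM or more. Of all such genes 27.9% were lower and 23.6% higher with sorafenib in Hep3B, 35.4% and 36.7% with both drugs in Hep3B, and 26.1% and 35.5% with both drugs in Huh7, in the authors' deposited tables. Of 26 other kinetochore genes, 17 were lower and 0 higher with sorafenib in Hep3B and 13 lower and 6 higher with both drugs, in the authors' deposited tables. SKA1, a subunit of a complex that tracks microtubule ends, stood at 0.16 with sorafenib and 0.86 with both drugs there, and ZWINT at -1.01 and -1.11, in the authors' deposited tables. Of 42 other mitotic genes, 33 were lower and 0 higher with sorafenib and 24 lower and 7 higher with both drugs in Hep3B, in the authors' deposited tables. LMNB1, the nuclear lamin, stood at -0.93 and -1.30, NCAPD3, a condensin II subunit, at -1.21 and -1.26, and WEE1, the kinase that inhibits CDK1, at 0.14 and 0.65 in the authors' deposited tables. In Huh7 with both drugs 18 of the 26 kinetochore genes were lower and 2 higher, and 36 of the 42 mitotic genes lower and 1 higher (WEE1, 1.10), in the authors' deposited table. Of 22 genes of the anaphase-promoting complex and cohesin, 7 were lower and 6 higher with both drugs in Hep3B and 8 lower and 4 higher in Huh7, in the authors' deposited tables, with the Hep3B counts near or below the shares of all genes.

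Genes that act before mitosis were read from the same tables, against the same shares of all genes (27.9% lower with sorafenib and 35.4% with both drugs in Hep3B, and 26.1% with both in Huh7). Of 28 genes of DNA replication and the G1/S transition, 26 were lower with sorafenib and 26 with both drugs in Hep3B, in the authors' deposited tables, at medians of -0.96 and -1.11. CDT1 (0.49) and RFC4 (0.64) were higher with both drugs there, in the authors' deposited table. RRM2, a subunit of ribonucleotide reductase, stood at -1.68 with sorafenib and -2.63 with both drugs, and CCNE1, the cyclin of S phase entry, at -1.51 and -2.84 in the authors' deposited tables. In the authors' deposited table for both drugs in Huh7, 26 of the 28 were lower with a median of -1.08. Of 14 CDK inhibitors and G1 genes, 3 were lower and 3 higher with GW3965 in Hep3B and 6 lower and 5 higher with both drugs, in the authors' deposited tables, where 3.82% and 7.4% of all genes were lower and higher with GW3965. With both drugs 35.4% of all genes were lower and 36.7% higher. The CDK inhibitors CDKN1C (-0.80 with GW3965 and -0.34 with both) and CDKN2C (-0.55 and -1.12) were lower in both comparisons and CDKN2B (1.19 and 1.05) was higher in both, in the authors' deposited tables. Others did not keep their direction. CDKN1B was lower with GW3965 (-0.23) and higher with both (0.59), in the authors' deposited tables. CDKN2A was higher with GW3965 (0.25) and not called with both (-0.14) there. CDKN1A (p21), a low-expressed gene with a mean log2 CPM of 0.92 in the first Hep3B table, stood at 1.10 with GW3965, 0.09 with sorafenib and 1.34 with both in Hep3B, in the authors' deposited tables. In Huh7 CDKN1A stood at -0.20 in the group labelled GW3965, 0.33 in the group labelled sorafenib and 1.05 in both, where the last passed the threshold, in the authors' deposited tables. CCND1 stood at -0.91 with sorafenib and -1.07 with both drugs in Hep3B, both called lower, and at -0.04 with both in Huh7, in the authors' deposited tables. Of 14 genes of RB-related proteins, E2F factors and DREAM subunits, 8 were lower and 4 higher with both drugs in Hep3B, in the authors' deposited table. Of all genes, 36.7% were higher there. E2F8 stood at -1.72, E2F2 at -1.63 and LIN37 at 1.19 in the authors' deposited table. RB1, counted with the G1 genes, had a mean log2 CPM of 0.71 in the Hep3B comparison of GW3965. In the Huh7 comparison labelled GW3965 its mean was 5.70.

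**Figure D4:**
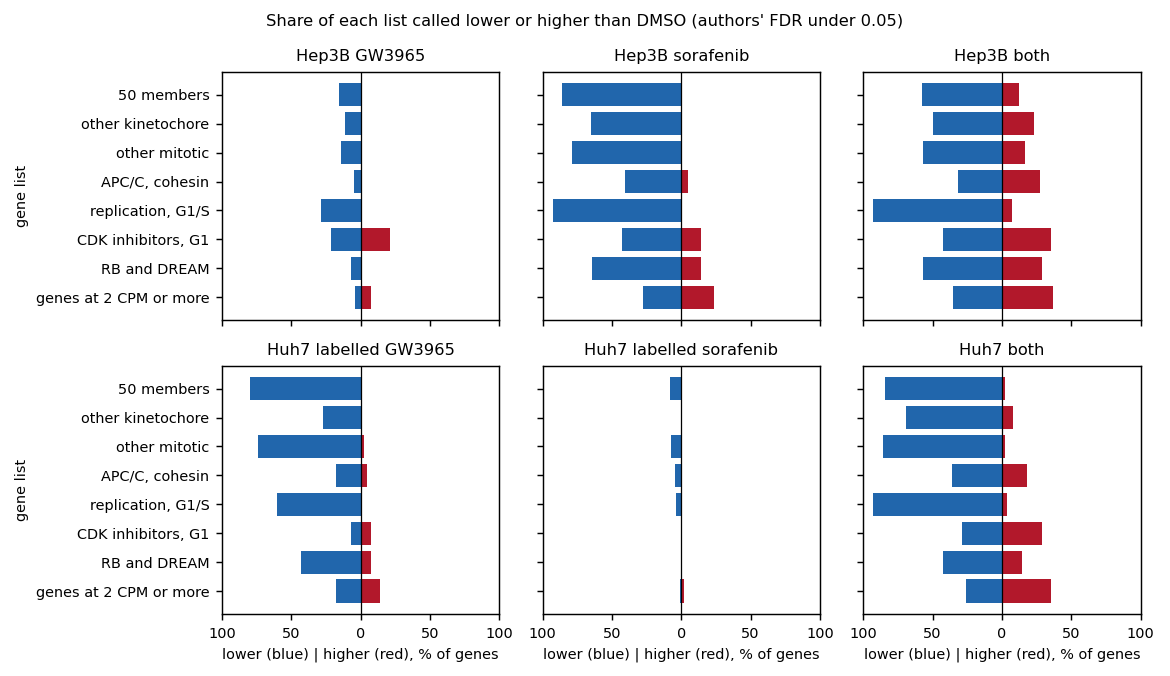
Share of each gene list called lower (blue, to the left) or higher (red, to the right) than DMSO at the authors' FDR under 0.05, in percent of the genes of the list, for the 6 comparisons. The bottom bar of each panel gives all genes at 2 CPM or more, and with both drugs in Hep3B 29 of the 50 mitotic genes lie to the left and 6 to the right.

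Some properties of the genes ran beside these values. Across 49 of the genes Spearman's rho between transcript length and log2 fold change was -0.37 with sorafenib in Hep3B and 0.45 with GW3965, against -0.08 and 0.25 across all expressed genes. With both drugs it was -0.29 in Hep3B and -0.10 in Huh7, against 0.02 and 0.10 across all expressed genes, and the part of length in the results was not tested. The median of both drugs minus sorafenib in Hep3B was 0.30 over the 30 genes with a CHR motif and 0.10 over the 13 with an entry and no motif, given as a description. For sorafenib against DMSO in Hep3B these medians were -0.52 and -0.54. For both drugs against DMSO they were -0.32 and -0.50 in Hep3B and -0.42 and -0.69 in Huh7. Only the exact letters TTTGAA were searched, so variants of the motif were not seen. For both drugs minus sorafenib in Hep3B, NUF2, NDC80 and SPC25, which each show a CHR in the printed stretch, gave 0.68, 0.39 and -0.22. SPC24, which shows none there, gave -0.38. In 21 of the genes the tables held several transcripts, and in 18 of these the fold changes of the transcripts lay within 0.05 of each other in every table, so the tables give little on isoforms. PTTG1 has near-identical copies elsewhere in the genome and its values are uncertain.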

How the data were processed

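Polyadenylated RNA from 70 samples in 8 groups was sequenced, and the samples were grouped by the labels' line and drug. The submitters' processing notes name edgeR, hg19 and GRCh37. Not given in the sources used here are the aligner, how and on which strand reads were counted, how values were normalized and which edgeR test was run. Each of 32321 transcripts has, in the 6 tables the authors deposited, a log2 fold change, a mean log2 CPM, an FDR and a p-value, per the file headers. For each gene the authors marked 1 representative transcript. The deposited FDR is the Benjamini-Hochberg adjustment of the deposited p-value over all rows of a table. The authors also deposited, per transcript, a count of libraries in which it was detected, which enters no result. No depth per library is known, so no limit from counting is given, and precision is known only through the authors' p-values.

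The 50 genes, their roles, the other gene lists, the sizes at which results are singled out, the motifs, the printed promoters and the background of genes at a mean of 2 CPM or more were chosen with earlier results of these data known. Of the 10 lists, older symbols were matched through RefSeq synonyms, and all symbols matched. The genes named with full statistics were, in each comparison, the 3 lowest and 3 highest log2 fold changes among called genes, and 12 genes of known role named in every comparison. Other genes were named after their values were seen. The authors' edgeR tests were not rerun.

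Differences between comparisons, 7 in all, were tested with an approximate normal test, in Python 3.11.15 with numpy 2.4.6, pandas 2.3.3 and scipy 1.17.1. Each fold change was divided by the normal quantile of its p-value to give a standard error. Genes were put in 20 bins of expression, and the bin's median error was used for p-values over 0.5 and as a lower limit for the rest. P-values of differences were 2-sided and adjusted by the Benjamini-Hochberg method over all genes with a mean of 2 CPM or more. Comparisons within a line share DMSO samples, whose error this sum counts more than once. The test was run on simulated data with normal errors and normal p-values, in the layout of both drugs against sorafenib. That run cannot show how well edgeR p-values convert to standard errors, and the other differences were not simulated. Intervals are 1.96 standard errors to each side. Implied DMSO levels were averaged over the 3 tables of a line. Alternatives were other thresholds, sets of genes adjusted over, centring, the transcript with the highest mean, and a standard error without its lower limit.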

Additional observations from a re-analysis of the deposited data

Results flagged for a closer look

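In all, 3 genes had a log2 fold change with both drugs, against DMSO, that differed by 0.75 or more between the lines and passed the approximate normal test of the difference, adjusted over all genes at 2 CPM or more. The size of 0.75 was chosen after the values were seen. The share of all genes that met both conditions was not computed. By the test alone, without the size, 17.7% of all genes were higher and 26.3% lower in Hep3B than in Huh7. NUF2 differed by 0.84 (Hep3B minus Huh7, adjusted p = 3.31e-07), with 137% of its DMSO level in Hep3B and 76.6% in Huh7. HMMR differed by 0.79 (adjusted p = 2.87e-05), with 159% of its DMSO level in Hep3B and 92.2% in Huh7. PLK1 differed by 0.78 (adjusted p = 5.68e-06), with 108% and 62.7%.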

How the results depend on the processing

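Only the authors' comparisons were at hand, so leaving out single samples was not run. No paired analysis was possible because the tables hold no values of single libraries. A change of at least 1.5-fold left 21 genes lower with sorafenib in Hep3B, 12 lower and 1 higher with both drugs, and 0 lower with GW3965. In Huh7 it left 4 lower in the group labelled GW3965, 0 in the group labelled sorafenib, and 18 lower and 0 higher with both. The share of all genes was not computed at this setting or at the others in this section, so these counts have no background. An FDR of 0.01 left 3 lower with GW3965 in Hep3B and 1 lower in the Huh7 group labelled sorafenib. For differences between comparisons, a threshold of 0.01 left 10 higher for both drugs against sorafenib and 3 higher against GW3965 in Hep3B, and 12 higher than additive. In Huh7 it left 4 lower and 0 higher against the group labelled GW3965, 0 higher against the group labelled sorafenib, and 0 lower and 0 higher than additive. Centring on the median of expressed genes left 0 higher for these same 3 Huh7 differences, whose medians over all genes were 0.11, 0.09 and 0.14. Adjusting over all genes left 6 lower for both drugs against the group labelled GW3965 in Huh7, and a standard error without a lower limit gave 2 higher there. The other 105 recomputed counts stayed within 1.5 times the reported ones, and 0 values reversed. Among recomputed values of single genes, 524 kept their call, 73 lost it and 3 gained it. CDK1 with GW3965 in Hep3B and AURKA in the Huh7 group labelled sorafenib lost theirs when adjusted over representative transcripts alone (edgeR p-values, adjusted p = 0.0508 and 0.0523).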
